A study of Mus musculus with 6 samples.

Results

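The nuclear-encoded respiratory chain subunits were followed in retina at postnatal day 15 of oxygen-induced retinopathy, comparing 3 samples from Emcn-/- pups with 3 from their Emcn+/+ littermates. In this mouse model, retinal capillaries are lost while newborn pups breathe raised oxygen, and the return to room air leaves tissue short of oxygen from which vessels regrow. Emcn encodes endomucin, a sialomucin coating endothelial cells. All 6 samples carried the retinopathy treatment, so no group without it was measured, and the labels name the genotype without saying how the allele was made or whether 1 sample was 1 animal. Members were chosen by symbol (Nduf, Sdh, Uqcr, Cox4 to Cox8 and Atp5 genes) and by a mean above 50 normalised reads over the 6 libraries, where normalised reads are gene read counts divided by 1 size factor per library. Of 28627 gene IDs, 96 matched the symbols. Names ending as pseudogenes, and Ndufa4l2, took out 9 of them, and 7 were at or under the minimum. The remaining 80 genes comprised 36 of complex I, 4 of complex II, 8 of complex III, 15 of complex IV and 17 of complex V. Ndufa4 carries a complex I symbol but is known as a cytochrome c oxidase subunit and was counted with complex IV. The values just inside the minimum were 53.4 for Cox8b, 94.0 for Cox6b2 and 451 for Ndufb2. Those just outside were 25.8 for Cox7a1, 21.2 for Ndufb4c and 12.2 for Ndufs6b.

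The respiratory chain takes electrons from NADH at complex I and from succinate at complex II and passes them through ubiquinone, complex III and cytochrome c to complex IV, which reduces oxygen to water. Complexes I, III and IV pump protons across the inner mitochondrial membrane, and complex V, the ATP synthase, makes ATP as the protons return. Most subunits are encoded in the nucleus and imported, while the hydrophobic cores of all but complex II include subunits encoded in mitochondrial DNA. In the retina, photoreceptor inner segments are packed with mitochondria, and the outer retina is among the tissues with the highest oxygen use.

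Within the promoters, the binding letters of factors known to act on respiratory genes were looked for in windows from 250 bases before to 50 after the RefSeq gene start (GRCm38.p6), which the table held for 67 of the 80 members. Those without a window included Ndufs1, Ndufb9, Ndufa2, Sdhc, Uqcrc2, Uqcrq, Uqcrb, Cox4i1, Cox6c, Cox4i2, Atp5a1 and Atp5mpl. Both strands were searched for GCGCNNGCGC (nuclear respiratory factor 1), CCGGAAG (ETS family, which includes the GA-binding protein), AAGATGG (YY1), AAGGTCA (oestrogen-related receptors) and ACGTG (hypoxia-inducible factors), and none of these 5 patterns contains another. The nuclear respiratory factor 1 letters lay in 17 members (25.4%), against 12.7% of 11845 promoters of tested genes and 6.43% of all 27025 promoters. The ETS letters were in 16 members (23.9%, against 16.6% and 9.12%), the YY1 letters in 10 (14.9%, against 6.64% and 6.475%) and the receptor letters in 8 (11.9%, against 3.17% and 4.66%). The hypoxia letters were in 17 members (25.4%), near the 25.0% of tested genes. At least 1 of the first 3 patterns was in 38 members (56.7%), against 31.5% of promoters of tested genes. GC content was a median of 58.3% over the member windows and 60.7% over those of tested genes. These are matches of letters, not measured binding.

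For each complex, the member with the smallest p between the genotypes among those with a window is shown. Sdhc in complex II and Cox4i2 in complex IV had a smaller p but no window. The windows shown are those of Ndufa11 (chr17:56717512-56717811, plus strand), Sdhb (chr4:140961021-140961320, plus), Uqcr11 (chr10:80406772-80407071, minus), Ndufa4 (chr6:11907401-11907700, minus) and Atp5o (chr16:91931581-91931880, minus), each read 5′ to 3′ along the gene. Capitals mark the letters of the 5 patterns: nuclear respiratory factor 1 in Ndufa11 and, as 2 overlapping matches, in Atp5o, ETS in Sdhb and Uqcr11, and the hypoxia letters in Uqcr11. The Ndufa4 window held none of them.
Ndufa11: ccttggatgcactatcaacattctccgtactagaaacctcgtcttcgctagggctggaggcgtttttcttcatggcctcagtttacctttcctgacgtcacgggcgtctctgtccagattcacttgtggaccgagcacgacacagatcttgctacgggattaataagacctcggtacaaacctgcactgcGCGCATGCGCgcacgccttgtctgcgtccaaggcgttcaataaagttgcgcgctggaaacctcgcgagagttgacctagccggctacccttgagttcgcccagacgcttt
Sdhb: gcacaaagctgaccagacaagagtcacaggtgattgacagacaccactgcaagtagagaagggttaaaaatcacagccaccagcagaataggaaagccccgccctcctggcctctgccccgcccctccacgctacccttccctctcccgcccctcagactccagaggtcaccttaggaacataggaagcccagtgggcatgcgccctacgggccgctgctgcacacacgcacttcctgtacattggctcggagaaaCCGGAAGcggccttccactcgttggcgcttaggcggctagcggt
Uqcr11: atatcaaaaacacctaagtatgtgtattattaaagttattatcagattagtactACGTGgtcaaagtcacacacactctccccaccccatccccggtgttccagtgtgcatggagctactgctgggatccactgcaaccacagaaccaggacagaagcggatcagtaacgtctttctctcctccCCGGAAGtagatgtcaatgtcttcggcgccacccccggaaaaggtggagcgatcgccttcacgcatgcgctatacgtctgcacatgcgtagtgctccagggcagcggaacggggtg
Ndufa4: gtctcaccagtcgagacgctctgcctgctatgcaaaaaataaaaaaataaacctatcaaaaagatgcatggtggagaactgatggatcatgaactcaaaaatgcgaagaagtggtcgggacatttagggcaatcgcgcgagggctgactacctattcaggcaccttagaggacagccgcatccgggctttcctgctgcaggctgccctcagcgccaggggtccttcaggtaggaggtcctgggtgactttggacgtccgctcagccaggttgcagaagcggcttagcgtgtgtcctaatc
Atp5o: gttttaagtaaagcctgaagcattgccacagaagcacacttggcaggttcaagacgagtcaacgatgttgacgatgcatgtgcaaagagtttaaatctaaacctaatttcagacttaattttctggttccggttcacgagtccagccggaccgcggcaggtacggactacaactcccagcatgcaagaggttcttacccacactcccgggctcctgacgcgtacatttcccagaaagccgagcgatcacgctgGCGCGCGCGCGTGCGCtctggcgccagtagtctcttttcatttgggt

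The YY1 letters are shown because most of them lay in a narrow range of positions. In 8 of the 10 members they read along the gene's own strand between 22 and 38 bases past the start (start base counted as 0), and in the other 2, Atp5pb and Cox7c, on the other strand at position -2. Counted on either strand and anywhere past the start, the first match lay there in 80% of the members with the letters. Among the promoters of tested genes with the letters it was 37.0% (positions 1 to 43). In each of the 8 members, the ATG inside the letters was the start codon of an annotated transcript in GENCODE M21 (GRCm38). How often this holds over tested genes was not counted. The stretches below carry the letters in capitals with up to 10 bases on each side.
Atp5j2: ccaggacttcAAGATGGcgtcactcgg
Atp5pb: gtgcgagcggCCATCTTgctcctgccc
Cox7c: gttgtaactcCCATCTTccctttcggt
Ndufa3: cgccaagaacAAGATGGccgggagtaa
Ndufa9: attgtgggagAAGATGGcggccgccgt
Ndufb8: ggagaaggtgAAGATGGctgcc
Ndufc1: cctgcggaacAAGATGGcgccgtccgt
Ndufs4: tgcctacaggAAGATGGcggcggtc
Ndufs6: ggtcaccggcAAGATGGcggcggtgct
Ndufs7: ggccgaggccAAGATGGcggcgctggc

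The libraries held 14865868 to 17087621 reads counted to genes, and 3 reads, the limit that a count of 0 allows, were worth 2.77 to 3.28 normalised reads. Such limits cover counting error only. Emcn, the targeted gene, had 1.95, 1.04 and 4.62 normalised reads in Emcn-/- retinas, against 93.3, 80.6 and 100.5 in Emcn+/+ retinas (limma adjusted p = 0.0143), and it was the only 1 of 16681 tested genes to pass. Lens markers summed to 56694 normalised reads in Emcn+/+ replicate 1 and to between 566 and 1062 in the other 5 libraries. Emcn+/+ replicate 3 and Emcn-/- replicate 3 carry sample titles from another number series (186 to 188) than the other 4 libraries (144 to 148), and what the series marks is not given. Rod markers were abundant in all 6 libraries: the 14 of them summed to 1045300, 1081030 and 1024530 normalised reads in Emcn-/- and to 931493, 971449 and 994441 in Emcn+/+ libraries. In bulk retina, fewer cells of a type and less RNA per cell cannot be told apart.

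Respiratory chain transcripts were abundant and leaned to higher values in Emcn-/- retinas by a small amount, with no member passing the test. Together the 80 members took 0.920%, 0.968% and 0.982% of the normalised reads in the Emcn-/- libraries, against 0.864%, 0.906% and 0.907% in the Emcn+/+ libraries. Their sum was 151851 ± 4283 in Emcn-/- and 139815 ± 6466 in Emcn+/+ (SD, n = 3 each), a ratio of 1.09. The sums were 146978, 153550 and 155023 in Emcn-/- libraries, against 136254, 135913 and 147279 in Emcn+/+ libraries. The sums overlapped, since the highest Emcn+/+ library, replicate 3, lay above the lowest Emcn-/- library, while the shares did not overlap.

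The log2 fold change of Emcn-/- over Emcn+/+ (on the log2(value + 1) scale) was positive for 78 of 80 members, with a median of 0.12. Over all 16681 tested genes 52% were positive, with a median of 0.01. Called at a limma adjusted p under 0.05 were 0 members, where 0% of tested genes were called higher and 0.00599%, Emcn alone, lower. On the recovered reads edgeR called 1 gene in all, Emcn, and edgeR and DESeq2 also called 0 members, and DESeq2 called 0.182% of the genes to which it gave an adjusted p higher. At an unadjusted limma p under 0.05 there were 19 members, all with higher values in Emcn-/-, against 3.67% of tested genes higher and 4.47% lower. Groups without overlap, with each Emcn-/- library above each Emcn+/+ library, were found for 26 members (32.5%), against 7.48% of tested genes. The opposite arrangement was found for 0 members, against 6.94%. The family was proposed with the results of these data known, so these counts describe it.

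By complex, the median log2 fold change was 0.10 for complex I (34 of 36 positive), 0.13 for complex II, 0.15 for complex III, 0.15 for complex IV and 0.12 for complex V, with every member of complexes II to V positive. The complexes' own sums gave Emcn-/- over Emcn+/+ ratios of 1.08 for complex I, 1.06 for complex II, 1.08 for complex III, 1.12 for complex IV and 1.08 for complex V. Members without overlap numbered 8 in complex I (22.2%), 2 in complex II (50%), 2 in complex III (25%), 5 in complex IV (33.3%) and 9 in complex V (52.9%), where 7.48% of tested genes had that arrangement. The SD between replicates of a library's median over all members was 0.06 on the log2 scale, and over the complexes it was between 0.05 and 0.09. The complexes were measured in the same libraries, so these SDs are not the errors of a difference between complexes.

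**Figure D1:**
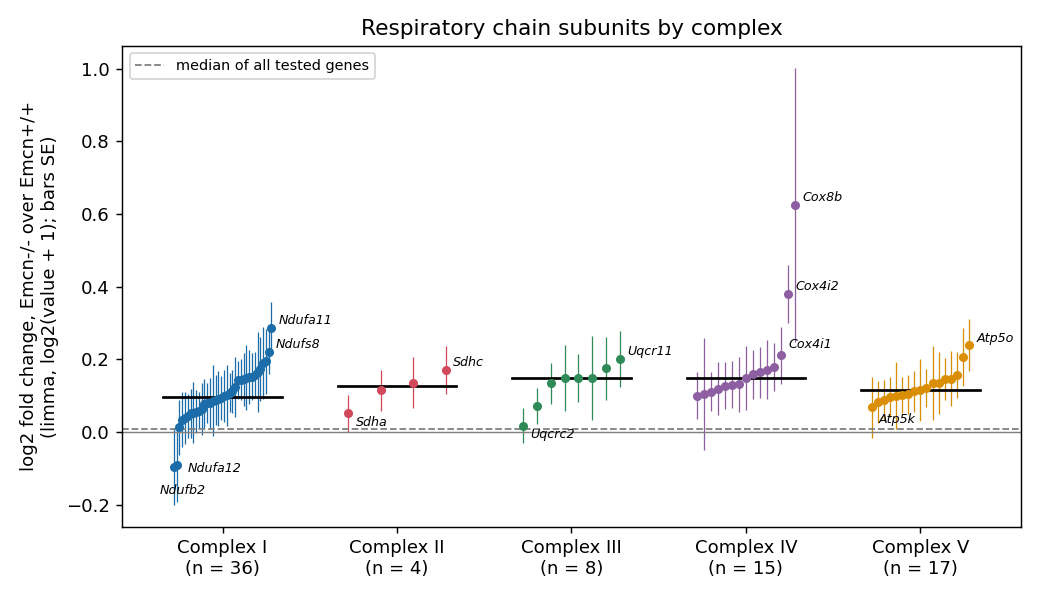
Log2 fold change (Emcn-/- over Emcn+/+) of the 80 members, sorted within each complex; points are genes, bars the limma SE, thick lines the median of a complex and the dashed line the median of all tested genes. 78 of the 80 points lie above 0, most of them close to the median of their complex (0.10 to 0.15), and Cox4i2 (0.38) and Cox8b (0.63, with a wide SE) stand highest.

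Complex I oxidises NADH and reduces ubiquinone. Ndufs8, a core subunit that carries iron-sulfur clusters, had 821, 882 and 843 normalised reads in Emcn-/- libraries and 717, 711 and 755 in Emcn+/+ libraries. Its means, 848 ± 30.8 and 727 ± 23.8 (SD), were set apart without overlap (log2 fold change 0.22 ± 0.06 SE, limma adjusted p = 0.451). Ndufa11, an accessory subunit of the membrane arm, had the largest difference of the complex. Its values were 539, 568 and 557 in Emcn-/- libraries, against 467, 468 and 430.3 in Emcn+/+ libraries. All 3 Emcn-/- values lay above all 3 Emcn+/+ values, with a log2 fold change of 0.29 ± 0.07 and a limma adjusted p of 0.400. Ndufa11 shares up to 70 exonic bases with Vmac on the opposite strand, which had a mean of 325 normalised reads. Whether the libraries kept strand is not known, so reads of Vmac may be counted with it.

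Among the other core subunits of complex I, Ndufs3 was also without overlap, with 1016, 1016 and 1066 normalised reads in Emcn-/- and 904, 957 and 940.3 in Emcn+/+ libraries (log2 fold change 0.14). The subunits of the NADH-oxidising tip were closer together. Ndufv1, which binds NADH and the flavin, averaged 2275 ± 80.8 in Emcn-/- and 2183 ± 45.2 in Emcn+/+ retinas, a log2 fold change of 0.06. Its lowest Emcn-/- and highest Emcn+/+ libraries differed by less than 1 normalised read, 2223.9 against 2223.5, although it counts among the members without overlap. Its partner Ndufv2 averaged 1648 ± 38.4 and 1528 ± 58.8 (0.11), without overlap. Ndufs1, the largest iron-sulfur subunit of the tip, averaged 1576 ± 82.6 in Emcn-/- and 1493 ± 98.7 in Emcn+/+ retinas (0.08), and Ndufs7, an iron-sulfur subunit next to Ndufs8, averaged 949 ± 30.7 and 899 ± 66.2 (0.08). Both overlapped between the genotypes. The accessory subunits ranged in log2 fold change from -0.10 for Ndufb2 to 0.29 for Ndufa11.

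Ndufb2 and Ndufa12 were the 2 members with a negative value. Ndufb2 had 371, 477 and 463 normalised reads in Emcn-/- libraries and 449, 467 and 477 in Emcn+/+ libraries, so a single Emcn-/- library was low (log2 fold change -0.10 ± 0.10). Its annotated exons share up to 146 bases with Braf on the opposite strand, which had a mean of 1797 normalised reads, and whether the libraries kept strand is not known. Ndufa12 had 477, 525 and 531 in Emcn-/- and 478, 617 and 545 in Emcn+/+ libraries (-0.09 ± 0.10). A processed copy, Ndufa12-ps, was counted separately at 323, 329 and 306 in Emcn-/- and 283, 234 and 331 in Emcn+/+ libraries, and reads can be split between such copies. The sum of both was 830.5 ± 27.3 in Emcn-/- and 829.6 ± 60.4 in Emcn+/+ retinas.

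Complex II oxidises succinate and is also the citrate cycle's succinate dehydrogenase. Sdha, the flavoprotein, was its most abundant transcript, with 5274, 5143 and 5087 normalised reads in Emcn-/- and 5205, 4824 and 4927 in Emcn+/+ libraries. The groups overlapped, and the log2 fold change of 0.05 ± 0.05 was the lowest of the complex. Sdhb, the iron-sulfur subunit, had 979.5, 983 and 1021 in Emcn-/- retinas, against 941, 897 and 917 in Emcn+/+ retinas, without overlap (0.12 ± 0.06, limma adjusted p = 0.643). The membrane anchor Sdhc averaged 1709 ± 49.8 in Emcn-/- and 1519.7 ± 119 in Emcn+/+ retinas (0.17 ± 0.07, limma adjusted p = 0.563). Emcn+/+ replicate 3, with 1656, lay above the lowest Emcn-/- library, with 1651. The other anchor, Sdhd, averaged 966 ± 19.3 and 880.1 ± 66.1, without overlap.

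Complex III passes electrons from ubiquinol to cytochrome c. Uqcrfs1, the Rieske iron-sulfur protein, had 1399, 1425 and 1422 normalised reads in Emcn-/- libraries, against 1368, 1253 and 1251 in Emcn+/+ libraries. The groups did not overlap, with a log2 fold change of 0.13 ± 0.06 and a limma adjusted p of 0.600. Uqcr11, a small subunit, had the largest difference of the complex, with 1035, 1057 and 1120.1 in Emcn-/- and 876, 887 and 1037 in Emcn+/+ libraries (0.20 ± 0.08, limma adjusted p = 0.563). Here Emcn+/+ replicate 3 lay among the Emcn-/- values. Of the 2 core proteins, Uqcrc1 averaged 2969 ± 37.8 in Emcn-/- and 2828 ± 102 in Emcn+/+ retinas (0.07), barely without overlap (lowest Emcn-/- library 2931, highest Emcn+/+ library 2929). Uqcrc2 averaged 1930.4 ± 47.5 and 1906 ± 18.1 (0.02) and overlapped. Cyc1, the cytochrome c1 of the same complex, falls outside the symbols and averaged 1824 ± 33.7 and 1750.0 ± 82.3 (0.06).

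Complex IV holds the isoform pairs. Cox4i1, the widely expressed form of subunit 4, had the highest read count of the complex, not corrected for length, with 4436, 4480.1 and 5096 normalised reads in Emcn-/- retinas. In Emcn+/+ retinas it had 3860.1, 3810.3 and 4440.3, with replicate 3 just above the lowest Emcn-/- library (log2 fold change 0.21 ± 0.08, limma adjusted p = 0.544). Cox4i1 shares up to 154 exonic bases with Emc8 on the opposite strand. Cox4i2 (GRCm38 chr2:152754173-152765037, plus strand), the alternative form known in cultured cells to be induced at low oxygen, had 664, 706 and 636 normalised reads in Emcn-/- retinas. Its Emcn+/+ values were 497, 488 and 558, all below the lowest Emcn-/- value. The means were 669 ± 35.5 in Emcn-/- and 514 ± 38.3 in Emcn+/+ retinas, and the log2 fold change was 0.38 ± 0.08. Its limma adjusted p of 0.374 was the smallest of the 80 members, and DESeq2 gave 0.0528.

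Cox4i2 was the 1 member called in any setting run, and the call rested on a library being left out. Without Emcn+/+ replicate 3, its log2 fold change was 0.44, with an adjusted p of 0.0426 in limma and 0.0440 in edgeR, in a fit that called 0.228% of tested genes higher. Over the other limma settings its adjusted p ranged from 0.0633 to 0.943. The log2 fold change itself stayed between 0.34 and 0.48 over all settings tried. The ratio of Cox4i2 to Cox4i1 was 0.294, 0.310 and 0.245 in Emcn-/- retinas, against 0.253, 0.252 and 0.247 in Emcn+/+ retinas. Emcn-/- replicate 3 lay below all Emcn+/+ libraries, and an exact 2-sided permutation test gave p = 0.4 (0.6 adjusted over 6 isoform pairs), where 3 against 3 cannot go under 0.1.

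Ndufa4, a cytochrome c oxidase subunit, had 3969.7, 4395 and 4077 normalised reads in Emcn-/- libraries and 3500.2, 3547 and 3949 in Emcn+/+ libraries, without overlap (log2 fold change 0.18 ± 0.07, limma adjusted p = 0.536). Its paralogue Ndufa4l2, a hypoxia-induced gene that the rule leaves out, had 985, 1251 and 1070.2 in Emcn-/- libraries. In Emcn+/+ libraries it had 566, 552 and 1201, so replicates 1 and 2 were low and replicate 3 was as high as the Emcn-/- libraries (0.60 ± 0.26, limma adjusted p = 0.604). Ndufa4l2 over Ndufa4 was 0.313, 0.359 and 0.331 in Emcn-/- libraries, against 0.204, 0.196 and 0.384 in Emcn+/+ libraries (exact 2-sided permutation p = 0.4).

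**Figure D2:**
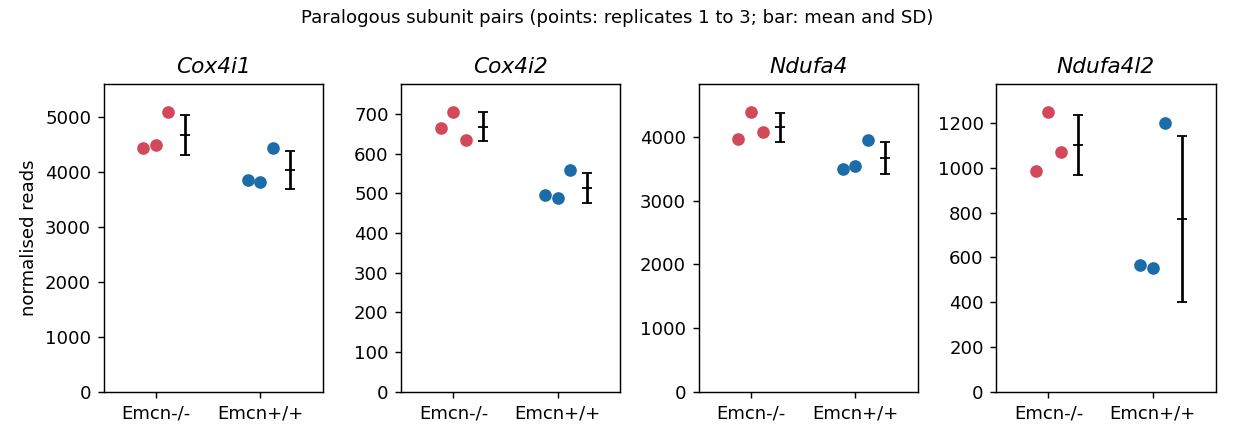
Normalised reads of Cox4i1, Cox4i2, Ndufa4 and Ndufa4l2 in each library, Emcn-/- to the left of Emcn+/+, with the mean and SD (n = 3 each) beside the points, which run from replicate 1 to 3. Cox4i2 and Ndufa4 do not overlap between the genotypes, while Emcn+/+ replicate 3 of Ndufa4l2 (1201) lies among the Emcn-/- values.

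The other nuclear-encoded subunits of complex IV, which surround a catalytic core made in the mitochondrion, had log2 fold changes below that of Cox4i2, except the scarce Cox8b. Cox5a had 904, 808 and 892 normalised reads in Emcn-/- and 804, 787 and 788 in Emcn+/+ libraries, and Cox5b averaged 1704 ± 24.1 in Emcn-/- and 1578 ± 61.3 in Emcn+/+ retinas. Both were without overlap, with log2 fold changes of 0.13 and 0.11. Cox6b1, on the side where cytochrome c docks, averaged 1627 ± 57.8 and 1459.5 ± 113 (0.16), also without overlap. Cox6a1 (0.15), Cox7a2 (0.12), Cox8a (0.13) and Cox6c (0.10, the lowest of the complex) overlapped. The forms known mainly from other tissues were scarce. Cox6b2, a testis form, averaged 97.3 ± 7.90 in Emcn-/- and 90.6 ± 9.56 in Emcn+/+ retinas. Cox8b, a heart and skeletal muscle form, had 51.6, 62.2 and 74.9 in Emcn-/- and 59.1, 20.4 and 52.4 in Emcn+/+ libraries. Its log2 fold change of 0.63 ± 0.38 was the largest of all members and was 0.16 without the low library, Emcn+/+ replicate 2.

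Complex V had the highest read counts. Atp5b, the catalytic beta subunit, had 18349, 19158 and 19425 normalised reads in Emcn-/- retinas, against 17279, 17261 and 18142 in Emcn+/+ retinas. The groups did not overlap (log2 fold change 0.11 ± 0.06, limma adjusted p = 0.643). Atp5a1, the alpha subunit, was likewise without overlap, at 10601 ± 83.3 in Emcn-/- and 9879 ± 321 in Emcn+/+ retinas (0.10). Atp5c1, the central stalk's gamma subunit, averaged 3559 ± 88.7 and 3364 ± 203 and overlapped (0.08). Atp5o, which joins the peripheral stalk to the catalytic head, had the largest difference of the complex. It had 787, 838 and 823 in Emcn-/- libraries, against 642, 693 and 742 in Emcn+/+ libraries, without overlap (0.24 ± 0.07, limma adjusted p = 0.482). Atp5mpl, a small membrane proteolipid, averaged 1610.3 ± 86.1 and 1398 ± 136 (0.21 ± 0.08, limma adjusted p = 0.561), and Atp5k, the e subunit, had the lowest value of the complex (0.07).

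The proton-conducting ring of complex V is built of 1 protein that 3 genes encode. Atp5g3 was the most abundant, with 3279, 3299.7 and 3099 normalised reads in Emcn-/- and 2987, 2845 and 3064 in Emcn+/+ libraries (log2 fold change 0.12). Atp5g2 averaged 1356 ± 30.9 and 1246 ± 202 (0.13), with Emcn+/+ replicate 3, at 1472, the highest library. Atp5g1 averaged 1113 ± 35.4 and 1006 ± 38.0 (0.15). Atp5g3 and Atp5g1 were without overlap. The ratio of Atp5g1 to Atp5g3 was 0.153 in Emcn-/- and 0.151 in Emcn+/+ retinas, and that of Atp5g2 to Atp5g3 was 0.548 and 0.545. The exact permutation p was 0.4 and 0.9 for these ratios.

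Levels between genes were compared per kilobase of exonic length. The median over the 80 members was 778 normalised reads per kilobase, and by complex it was 622 for complex I, 623 for complex II, 1118 for complex III, 1338 for complex IV and 779.6 for complex V. Cox8a stood highest, at 5466 ± 181 per kilobase in Emcn-/- and 5001 ± 381 in Emcn+/+ retinas. Atp5b followed with 4479 ± 132 and 4145 ± 119, and Atp5a1 had 3381 ± 26.6 and 3151 ± 102. Cox4i1 had 3013 ± 238 and 2604 ± 226, and Ndufa4 had 3003 ± 160.1 and 2654 ± 179. Within each genotype, these genes did not differ from each other beyond their spread. Ndufb2, with a long annotated exonic length, was lowest at 77.7 ± 10.2 in Emcn-/- and 82.5 ± 2.53 in Emcn+/+ retinas. Across the members, log2 fold change had a Spearman correlation of -0.01 with the mean level and of -0.28 with exonic length (80 genes of the same 6 libraries, given as a description).

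The libraries did not divide cleanly by genotype. The median over members of the log2 deviation from each gene's mean was 0.01, 0.09 and 0.09 in Emcn-/- replicates 1 to 3, against -0.11, -0.10 and 0.03 in Emcn+/+ replicates 1 to 3. Members above their own mean numbered 52, 71 and 76 in Emcn-/- retinas, against 6, 5 and 50 in Emcn+/+ retinas. The members were thus low in 2 Emcn+/+ libraries, while Emcn+/+ replicate 3 and Emcn-/- replicate 1 were close, replicate 3 being higher by the median and the sum and lower by the count and the share of the library. Without Emcn+/+ replicate 3 the member median was 0.16, and within the 4 libraries of the first title series it was 0.14, with 77 of 80 positive. The second series held 1 library of each genotype, Emcn-/- at 0.09 and Emcn+/+ at 0.03.

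Cytosolic ribosomal protein genes and the shortest group of tested genes were likewise lowest in Emcn+/+ replicates 1 and 2. The transcripts encoded in mitochondrial DNA were lowest in Emcn+/+ replicate 1 (median -0.06) and highest in Emcn+/+ replicate 2 (0.07). The 74 cytosolic ribosomal protein genes had medians of -0.02, 0.07 and 0.17 in Emcn-/- libraries and -0.19, -0.19 and 0.17 in Emcn+/+ libraries. Their median log2 fold change was 0.14 with 69 positive, and none of them was without overlap. Divided into 5 equal groups by exonic length, the shortest group of tested genes had medians of 0.01, 0.05 and 0.08 in Emcn-/- and -0.07, -0.07 and 0.04 in Emcn+/+ libraries, and the longest group was highest in those 2 libraries, at 0.06 in both. What part gene length, ribosomal transcripts or single libraries have in the members' values was not tested.

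**Figure D3:**
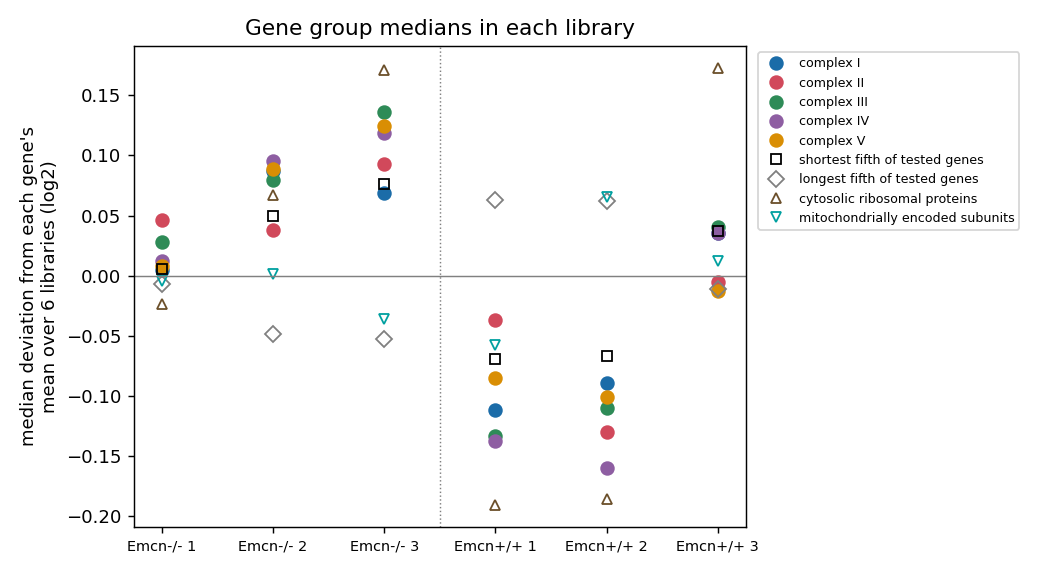
Median log2 deviation from each gene's mean over the 6 libraries, for the members of each complex (filled circles) and for 4 other gene groups (open symbols), with the Emcn-/- libraries to the left of the Emcn+/+ libraries. The complexes lie low in Emcn+/+ replicates 1 and 2 and near 0 in Emcn+/+ replicate 3 and Emcn-/- replicate 1, and the shortest length group of genes is also lowest in Emcn+/+ replicates 1 and 2, with less spread.

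Exonic length here is the union of all annotated exons of a gene, which can exceed the length of any single transcript. By it, 53 of the 80 members were in the shortest of the 5 length groups (up to 2124 bases). The next held 16, and the others 7, 3 and 1. The length of the transcripts expressed was not measured, so members and other genes of a group are not matched for it. From the shortest to the longest group, the median log2 fold change of all tested genes was 0.08, 0.05, 0.02, -0.01 and -0.07. That of the members was 0.14, 0.11, 0.10, 0.10 and 0.08, above all genes in each group, of which the last 3 hold few members. In the shortest group, 14 of 53 members (26.4%) were without overlap, against 10.2% of all genes there. With the length trend removed from each library, the member median was 0.10 with 75 positive, where 55.1% of the genes with a length were positive. By annotation, 27 members have exonic bases in common with another gene, 16 of them with a gene whose mean exceeds 10% of their own. The 53 members without such an overlap had a median of 0.12 with 52 positive.

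**Figure D4:**
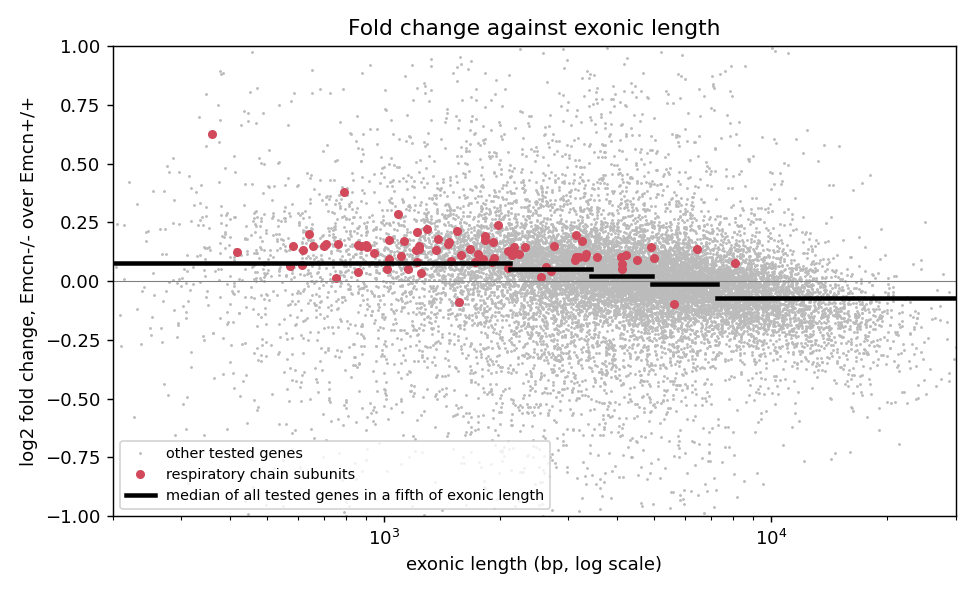
Log2 fold change (Emcn-/- over Emcn+/+) against exonic length in bases on a log axis, for the 80 members (large points) and the other tested genes (small points), with black lines at the median of all tested genes in 5 equal groups of length. Most members lie at the short end, and their points lie mostly above the black lines, whose medians run from 0.08 to -0.07.

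The 13 subunits encoded in mitochondrial DNA were close to level between the genotypes. They summed to 236114, 237294 and 226256 normalised reads in Emcn-/- and 228342, 244509 and 241447 in Emcn+/+ libraries, a ratio of 0.980, and 6 of 13 were positive, with a median of -0.02. mt-Co1, the catalytic subunit of complex IV, averaged 88885 ± 721 in Emcn-/- and 90396 ± 4719.6 in Emcn+/+ retinas. mt-Cytb, the cytochrome b of complex III, averaged 42966 ± 1208 and 44857 ± 1937. mt-Nd3, a proton-pumping arm subunit of complex I, was the 1 gene without overlap, in the higher direction (7.69%, near the 7.48% of tested genes). It had 303, 316 and 319.8 in Emcn-/- and 212, 289 and 259.9 in Emcn+/+ libraries (log2 fold change 0.31 ± 0.12, limma adjusted p = 0.563). Poly-A selection takes mitochondrial transcripts by their own short tails, so these levels are not comparable with those of nuclear genes.

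The rest of the mitochondrial programme was looked at through lists, none of which held a gene called by limma. Of 47 assembly factors measured, 31 were positive, with a median of 0.07, 6 without overlap in the higher direction (12.8%, against 7.48% of tested genes) and 0 in the lower (against 6.94%). Uqcc2, an assembly factor of complex III, had the smallest p, with 630.0, 723 and 749 normalised reads in Emcn-/- and 552, 567 and 619 in Emcn+/+ libraries (0.27 ± 0.09, limma adjusted p = 0.505). Among 17 genes of pyruvate dehydrogenase and the citrate cycle, 14 were positive (median 0.07) and 7 were without overlap in the higher direction (41.2%). Mdh2, mitochondrial malate dehydrogenase, had 3714, 3717 and 3668 in Emcn-/- and 3269, 3217 and 3310.0 in Emcn+/+ libraries (0.18 ± 0.05, limma adjusted p = 0.400). Among 12 carriers and outer membrane proteins, 11 were positive (median 0.12) and 8 were without overlap in the higher direction (66.7%). Slc25a5, an ADP/ATP carrier, had 4836, 4828 and 4832 in Emcn-/- and 4500.0, 4332 and 4392 in Emcn+/+ libraries (0.13 ± 0.05, limma adjusted p = 0.522). The 77 mitochondrial ribosomal protein genes had a median of 0.08, with 63 positive, 14 without overlap in the higher direction (18.2%) and 1 in the lower.

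Of the regulators of mitochondrial biogenesis, 5 of 14 were positive, with a median log2 fold change of -0.03. Ppargc1a, the coactivator PGC-1alpha, had 1006, 1019.7 and 987 normalised reads in Emcn-/- and 1199, 1160.4 and 826 in Emcn+/+ libraries. Nrf1, Gabpa, Esrra and Yy1, whose letters were looked for in the promoters, had log2 fold changes of -0.04, 0.01, -0.02 and -0.08. Yy1 was the 1 gene of the 14 with each Emcn-/- library below each Emcn+/+ library, an arrangement that 6.94% of tested genes had. It had 1922, 1823 and 1945 in Emcn-/- and 2009.9, 1962 and 2025 in Emcn+/+ libraries. Tfb2m, a mitochondrial transcription factor, was the 1 gene of the list with each Emcn-/- library above each Emcn+/+ library, with 245, 233 and 254 in Emcn-/- and 203, 199 and 213 in Emcn+/+ libraries (0.25 ± 0.10, limma adjusted p = 0.561). Members with the nuclear respiratory factor 1 letters had a median log2 fold change of 0.13, against 0.12 without them. Members with the ETS letters had 0.15, against 0.11, and those with the YY1 letters 0.09, against 0.12. With the receptor letters the median was 0.13, against 0.12, and with the hypoxia letters 0.12, against 0.12. These differences were not tested.

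Genes that link low oxygen to respiration were mostly positive, 9 of 10 with a median of 0.17 and 6 without overlap in the higher direction (60%, against 7.48% of tested genes). The list includes Cox4i2, which is also a member, and Ndufa4l2. Bnip3 and Bnip3l, receptors for mitophagy, were without overlap. Bnip3 had 1985, 2021 and 2025 normalised reads in Emcn-/- and 1515, 1421 and 1961 in Emcn+/+ libraries (0.31 ± 0.11, limma adjusted p = 0.522). Bnip3l had 3529.6, 3546 and 3668 in Emcn-/- and 2914, 2851 and 3421 in Emcn+/+ libraries (0.23 ± 0.07, limma adjusted p = 0.504). As with Ndufa4l2, Emcn+/+ replicate 3 was the highest Emcn+/+ library for both. Pdk1, which restrains pyruvate dehydrogenase, averaged 1329.6 ± 81.6 and 1212 ± 36.6, without overlap (0.13). The 17 glycolysis genes, a list added after the values were seen, had 15 positive, a median of 0.14 and 4 without overlap in the higher direction (23.5%). DESeq2 called 1 of the 17 higher, Gapdh (adjusted p = 0.000357), against 0.182% of all genes to which it gave an adjusted p.

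Cell type markers moved beside the members as follows. All 14 rod markers were positive, with a median log2 fold change of 0.09 and 4 without overlap (28.6%, against 7.48% of tested genes), and 8 of 10 cone markers were positive (median 0.12). Bipolar markers had 2 of 10 positive (median -0.04), amacrine and horizontal markers 4 of 12 (-0.07), Muller glia markers 6 of 12 (0.06) and endothelial markers 1 of 12 (-0.19). Endothelial sums were 7668, 5352 and 7888 normalised reads in Emcn-/- libraries, with replicate 2 low, and 7624, 7686 and 8065 in Emcn+/+ libraries. By median log2 deviation, bipolar markers were highest in Emcn+/+ replicate 1 (0.13). Ganglion cell markers had 6 of 12 positive (0.02), astrocyte markers 4 of 6 (0.14) and pericyte and smooth muscle markers 3 of 8 (-0.09). The pericyte and smooth muscle sums were 5482, 3544 and 5983 in Emcn-/- libraries, with replicate 2 again low, and 4803, 4598 and 4519 in Emcn+/+ libraries. Microglia and macrophage markers had 3 of 10 (-0.04) and red blood cell markers 1 of 5 (-0.12). Retinal pigment epithelium markers summed to 9196, 12818 and 12756 normalised reads in Emcn-/- libraries and 8222, 3929 and 6499 in Emcn+/+ libraries, with all 12 tested markers positive (median 0.82) and 5 without overlap (41.7%). Ciliary body and iris markers summed to 7788, 7776 and 8264 in Emcn-/- and 6652, 5380 and 6357 in Emcn+/+ libraries, and all 8 were positive (median 0.57), with 4 without overlap (50%). No marker in these lists passed the limma test. DESeq2 called 3 of them higher, against 0.182% of all genes to which it gave an adjusted p. These were Col9a1 (adjusted p = 0.00138) and Col9a2 (0.0151) of the ciliary body list and Apoe (0.00128) of the Muller glia list. The part of these cells in the members' values was not tested.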

How the data were processed

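Poly-A RNA of 6 mouse retina samples was sequenced, 3 Emcn-/- and 3 Emcn+/+, grouped by the genotype in the labels. The deposited values are a signal per gene, scaled per library and not per length. The authors' scaling, aligner, counter and annotation were not given in the sources used here. In each library 100% of values were whole multiples of 1 step (tolerance 0.001), and the steps equal the inverse of DESeq2 size factors, so read counts were recovered. The genome build was GRCm38, per the submitters' processing notes. The protocol in the labels covers kits that keep strand and kits that do not, so overlapping genes cannot be told apart.

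Genes passing filterByExpr (minimum count 10) were tested, 16681 in all, with limma 3.58.1 (R 4.3.3) on log2(value + 1) with an intensity trend, fitting genotype alone and adjusting p by Benjamini-Hochberg over all of them. Fold changes on this scale understate low genes. edgeR 4.0.16 and DESeq2 1.42.0 on recovered reads were alternatives. The scripts were tested on simulated data. Exonic lengths, the union of all annotated exons of a gene, and positions came from GENCODE M21. Named members were Emcn, in each complex the highest mean, the 2 smallest p and the largest and lowest fold change, the core subunits, the isoforms and those at the minimum. Others named were chosen after their values were seen. The values of 1 member are not reported here, though the counts and medians include it. The members and all lists were chosen with earlier results of these data known. No label says that samples are separate animals, so p-values measure only the spread between the samples at hand, which may be technical.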

Additional observations from a re-analysis of the deposited data

How the results depend on the processing

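Under the other scalings, filters, pseudocount, tests, the length correction and the title series as a term, the member median stayed between 0.10 and 0.13 and 75 to 78 members were positive. With libraries left out it ranged from 0.10 to 0.16, with 76 to 78 positive, and the within-series fit of 2 against 2 libraries gave 0.14. The count of genes called, 1 in the reported fit, was 0 with a minimum mean of 50, 74 with DESeq2, 42 within the first title series, between 0 and 151 with 1 library left out, and 167 with edgeR without Emcn+/+ replicate 3. The count of members called, 0, was between 0 and 1 with 1 library left out. It was 1, Cox4i2, without Emcn+/+ replicate 3 in limma and in edgeR. The cause of these shifts was not tested. Near 0, the log2 fold change of 3 of the 37 members named by the rule changed sign in at least 1 setting, and those of Ndufc2 (-0.0216) and Ndufa13 (-0.00437) also did with the length trend removed. That of Uqcrc2 was -0.00617 with the length trend removed, and with 1 library left out it ranged from -0.000241 (without Emcn-/- replicate 1) to 0.0351. With 1 library left out, Ndufb2 ranged from -0.164 to 0.0176 (without Emcn-/- replicate 1) and Atp5k from -0.00925 (without Emcn-/- replicate 2) to 0.114. Emcn itself missed the limma threshold in 3 of the fits with a library left out: at 0.155 without Emcn-/- replicate 1, 0.0924 without Emcn+/+ replicate 1 and 0.191 without Emcn+/+ replicate 2 (adjusted p). The within-series fit and edgeR without Emcn+/+ replicate 3 were chosen after seeing the data. No paired analysis was possible because no number in the labels is shared between the genotypes, and the replicate numbers used here follow the order of the samples. With the title series as a term, Cox4i2 had an adjusted p of 0.133, and 0 members were called. Depth limits the scarce isoforms: Cox8b, Cox6b2 and Emcn had no DESeq2 adjusted p.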
